A study of Mus musculus with 10 samples.

Results

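Histone genes were read in 10 RNA libraries from mammary tumors of mice, 6 of sorted tumor macrophages and 4 of whole tumor. The genes taken were the protein-coding ones named as replication-dependent core histones or as linker histones, by the symbol prefixes H1f, H2ac, H2bc, H3c and H4c or the older Hist1h to Hist4h. This gave 65 genes in all, 62 of the 23202 genes in the macrophage table and 58 of the 19720 genes in the whole-tumor table, with 55 in both. Of these, 50 lie on chromosome 13 (chr13:21715763-23764406) and 10 on chromosome 3 (chr3:96219865-96270132), with 2 on chromosome 11, 2 on chromosome 6 and H1f0 on chromosome 15 (GRCm38 positions from GENCODE vM21, by gene ID). By family they were 8 linker (H1), 16 H2A, 17 H2B, 12 H3 and 12 H4 genes. All mice were of the B6:MMTV-PyMT line, in which a viral oncogene expressed in mammary epithelium gives rise to mammary tumors, carried Cxcr4fl/fl alleles, and were sampled at 15 weeks of age. Mice with LysmCre, a Cre recombinase driven by a promoter of the myeloid lineage at large, are called cKO here, and littermates without Cre are the controls. Macrophages were sorted on F4/80 and CD11b from cKO mice 725, 746 and 867 and from control mice 706, 720 and 775. Whole tumors came from cKO mice 725 and 746 and control mice 706 and 720. Each library of a table came from a different mouse, and per the labels cKO and control tumors were matched for size.

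Core histones form the spool of the nucleosome, with H3 and H4 at its center and H2A with H2B on its flanks, and a linker H1 binds the DNA between nucleosomes. Most of their genes are transcribed in S phase, when new DNA is packaged, and give mRNAs that end in a stem-loop instead of a poly(A) tail. The stem-loop binding protein SLBP holds that end through processing, translation and decay. A few members behave otherwise: H1f0 and H1f10 are linker histones made outside S phase as well, H1f0 mostly in cells that have slowed or left the cell cycle. In a tumor, cycling cancer cells and cycling macrophages can both contribute such transcripts. Per the labels, the libraries were depleted of ribosomal RNA, with no step named that selects poly(A) tails, so tail-less transcripts could be read.

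The end of the message is what sets these genes apart, so it was looked for in the annotated transcripts (GENCODE vM21, GRCm38). The search asked for a 6-base stem that opens with GG, a 4-base loop that opens with TT, and full pairing of the stem arms. Of 65 members, 44 had such a site: 4 of 8 H1, 11 of 16 H2A, 10 of 17 H2B, 8 of 12 H3 and 11 of 12 H4 genes. The stem read GGCTCT in all 33 sites outside the H4 family, and in H4 genes it read GGCCCT in 9 and GGTCCT in H4c2 and H4c11. Sites from 5 members show this, 5′ to 3′ in the sense of the gene, with both stem arms in capitals and the loop between them.
H1f2: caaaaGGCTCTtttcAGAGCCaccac
H2bc12: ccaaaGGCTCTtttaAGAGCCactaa
H3c3: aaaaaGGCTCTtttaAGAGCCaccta
H4c17: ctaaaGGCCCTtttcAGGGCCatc
H4c2: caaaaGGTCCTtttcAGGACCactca
In 22 members the annotated transcript ended within 100 bases of the loop, and in 22 others it ran on past it, by 840 bases in H1f2 and by 4884 bases in H1f3. The other 21 had no such site. In 8 of these the model held little beyond the coding part, and 13 had untranslated sequence without the site, H1f0, H1f10 and H2bc4 among them. H2bc4 is the most abundant H2B gene of the macrophage table.

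Members of a family are close copies of each other, which limits how well reads can be given to one gene. Over the 65 members a median of 42% of the 75-base stretches of a gene's transcripts also occurred in another gene. The median was 71.5% in H2A, 59% in H3, 47.4% in H2B, 23.5% in H4 and 2.98% in H1 genes. Any other annotated gene counted, on either strand. Sharing was complete for H2ac18, H2ac19, H2bc18, H3c13 and H3c14. For these 5 genes, 0% of stretches were shared within the family alone, as genes outside the family members held them too. H4c17 (chr13:21811746-21812147) and H4c18 (chr13:21831767-21832196), an inverted pair 19.6 kb apart, are the extreme case that carries weight in the results. Over the 402 bases of the H4c17 transcript they differ by 1 substitution, G36A, counted from the first base of the transcript with the H4c17 base first, which lies before the start codon at base 39. Many histone values were also not whole numbers of reads, and the part of shared sequence in this was not tested. Of the values that amount to at most 50 reads, 85.2% over all macrophage-table genes and 83.1% for whole tumors were whole numbers of reads within 0.1 read, against 34 of 96 (35.4%) and 17 of 41 (41.5%) for histone genes. Values above 0 but under 1 read made up 19.8% and 22.0% of those histone values, against 3.51% and 4.36% over all genes. A histone gene's value can therefore hold fractions of reads. Where reads are split between copies, a sum over a family or a near-identical pair rests on fewer such splits than a single gene.

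Promoters also differ by family. RefSeq promoters (GRCm38.p6, 250 bases before to 50 bases after the start) were available for 56 members. The letters ATTTGCAT, the octamer bound by POU-domain factors and long known from H2B promoters, occurred on either strand in 6 of 13 H2B and 5 of 15 H2A promoters (46.2% and 33.3%) and in none of 8 H1, 10 H3 and 10 H4 promoters, against 1.74% of all 32851 promoters. The letters CCAAT were in every H2A, H2B and H3 promoter and in 6 of 8 H1 promoters (75%), but in 3 of 10 H4 promoters (30%), against 37.4% of all promoters. TATAAA was in 31 of 56 members' promoters (55.4%) against 13.6% of all. None of the 3 motifs contains another, and matches that overlap in part were each kept. Matches describe letters and are not evidence of binding. The 250 bases before the start of an H2B, an H4 and an H1 gene that recur in the results are shown, with matches of the 3 motifs on either strand in capitals.
H2bc12, chr13:22035571-22035820, plus strand: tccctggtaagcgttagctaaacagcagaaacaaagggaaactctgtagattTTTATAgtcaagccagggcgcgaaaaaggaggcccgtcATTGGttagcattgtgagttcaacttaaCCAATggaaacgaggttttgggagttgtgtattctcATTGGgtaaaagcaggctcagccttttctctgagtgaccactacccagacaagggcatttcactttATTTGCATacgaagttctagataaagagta
H4c17, chr13:21811496-21811745, plus strand: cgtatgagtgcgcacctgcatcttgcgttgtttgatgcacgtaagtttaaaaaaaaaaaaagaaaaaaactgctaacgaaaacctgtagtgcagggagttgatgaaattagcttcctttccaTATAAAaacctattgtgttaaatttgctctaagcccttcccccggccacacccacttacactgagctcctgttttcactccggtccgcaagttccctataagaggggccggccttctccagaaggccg
H1f2, chr13:23738557-23738806, plus strand: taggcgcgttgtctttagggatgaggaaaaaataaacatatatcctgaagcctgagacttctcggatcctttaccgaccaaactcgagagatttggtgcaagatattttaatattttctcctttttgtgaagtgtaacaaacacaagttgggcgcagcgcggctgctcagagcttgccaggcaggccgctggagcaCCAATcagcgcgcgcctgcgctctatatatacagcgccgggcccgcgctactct
The H2bc12 stretch held the octamer, 3 CCAAT matches and a TATAAA match, the H4c17 stretch held TATAAA alone, and the H1f2 stretch CCAAT alone. The promoters of H4c17 and H4c18 differed at 1 of 299 aligned bases. H2A and H2B genes also came in 11 divergent pairs, with starts 176 to 302 bases apart.

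Depth, read from the steps between low values, was 14.4 to 25.2 M reads (M for 1000000) in the macrophage libraries and 34.2 to 53.4 M in the tumor libraries. A value of 0 allows up to 0.119 to 0.208 CPM (counts per 1000000 listed reads) in macrophage libraries and 0.0562 to 0.0878 CPM in tumor libraries for 3 reads, by counting error only. Cxcr4, the targeted gene, was at 14.4, 135 and 54.3 CPM in control macrophages 706, 720 and 775, and at 41.9, 165 and 24.1 CPM in those labelled cKO, 725, 746 and 867. In whole tumors it was at 29.8 and 33.4 CPM in controls and at 47.9 and 57.6 CPM in cKO (adjusted p = 0.819). It was thus not lower in the libraries labelled cKO (limma adjusted p = 0.9998 in macrophages), and every direction given here is that of the labels. Macrophage marker genes (Adgre1, Csf1r, Cd68, C1qa and Mrc1, all 5 read in every library) summed to 1189 to 1442 CPM in 5 macrophage libraries and to 626 CPM in control 775. Epithelial markers (all 5 read) summed to 3146 to 7013 CPM in the macrophage libraries and to 5217 to 7287 CPM in whole tumors. The sums overlapped in CPM and the sorted samples held epithelial RNA, with Csn3 the largest part of each sum. Protein-coding genes took 67.65% to 80.06% of listed reads in macrophage libraries and 49.7% to 56.55% in tumors. The markers were not scaled to protein-coding genes, which would lower the macrophage values relative to the tumor values. Csn3 was at 1557 to 4908 CPM in macrophage libraries and 4182 to 6405 CPM in tumors, and Epcam overlapped too. Krt8 was at 260 to 526 CPM against 50.9 to 69.3 CPM and Krt18 at 375 to 681 CPM against 111 to 133 CPM. Cdh1 was likewise higher in CPM in every macrophage library than in every tumor. The macrophage markers summed to 66.5 to 76.7 CPM in whole tumors. In the macrophage libraries the summed markers of T cells (2 of 3 listed), B cells (2 of 3), red cells (3 of 3) and neutrophils (3 of 3) reached at most 1.91, 14.4, 18.9 and 5.63 CPM.

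In the sorted macrophages the histone genes together took 736, 518 and 347 CPM in controls 706, 720 and 775, and 425, 745 and 354 CPM in cKO 725, 746 and 867. The means were 534 ± 195 and 508 ± 208 CPM (SD, n = 3 each). One library of each group was high and the others lay lower, so the groups overlapped fully. H1 and H4 genes made up 37.3% and 32.0% of this sum, H2B 13.7%, H3 8.84% and H2A 8.19%. In bulk RNA, fewer cells of a type and less RNA per cell cannot be told apart, and this holds for all sums here.

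**Figure D1:**
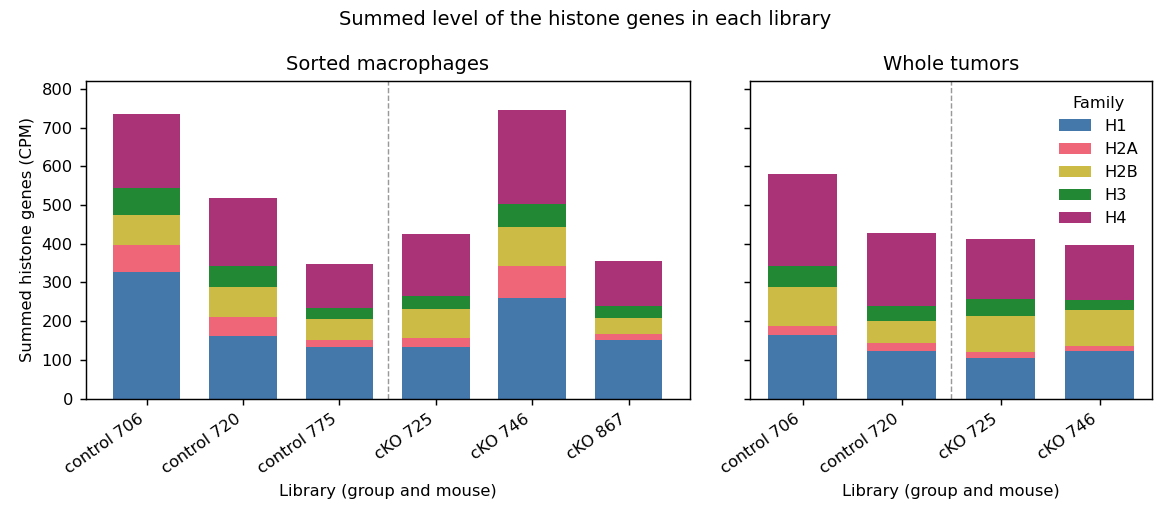
Summed histone genes (CPM) in each macrophage and tumor library, stacked by family, controls left of the dashed line. Macrophage control 706 and cKO 746 stand at 736 and 745 CPM and the other 4 macrophage libraries at 347 to 518 CPM, while tumor 706 stands at 580.1 CPM and the other tumors at 397 to 427 CPM.

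As a family, H1 genes had the highest sum in 4 of the 6 macrophage libraries and H4 genes in control 720 and cKO 725. H1f0 (chr15:79028450-79030504) was at 98.2, 53.3 and 64.4 CPM in controls 706, 720 and 775 and at 50.9, 63.4 and 60.5 CPM in cKO 725, 746 and 867. Apart from control 706 its values lay within a narrow band. H1f0 overlaps Gm49544 in position. H1f2 (chr13:23738808-23740367), the most abundant H1 gene per kilobase of exon at 38.1 ± 15.3 CPM per kb (SD, n = 6), was at 92.8, 55.5 and 34.97 CPM in the controls and 49.5, 84.4 and 39.5 CPM in the cKO libraries. H1f3 was at 71.8, 27.1 and 19.9 CPM in the controls and 15.97, 50.8 and 22.3 CPM in the cKO libraries, so H1f2 and H1f3 both peaked in 706 and 746. H1f4, H1f5 and H1f1 followed, with means of 17.01, 10.1 and 7.04 CPM over the 6 libraries. H1f4 overlaps H2bc6 in the table's positions and both lie on the minus strand, so reads in their overlap cannot be told apart by strand. H1f10 was at 0 in 3 libraries and at most 2.02 CPM in the others. H1f6, the testis linker histone, was read in control 775 alone, at 0.87 CPM.

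The highest core histone levels per kilobase were those of H4 genes. H4c17 stood at 156 ± 65.2 CPM per kb (SD, n = 6) and was at 94.5, 79.1 and 25.4 CPM in controls 706, 720 and 775 and at 77.5, 39.4 and 61.4 CPM in cKO 725, 746 and 867. Its copy H4c18 was at 12.8, 2.92 and 37.9 CPM in the controls and at 18.8, 60.2 and 2.27 CPM in the cKO libraries. H4c18 was thus high where H4c17 was low, in 775 and 746. The sum of the pair ran only from 63.2 to 107 CPM, 1.7-fold, against 3.73-fold for H4c17 and 26.5-fold for H4c18 alone. In macrophages a pair that differs by 1 base was thus steadier as a sum than as single genes. H4c4, which shares 3.67% of its stretches with other genes, was the next H4 gene at 28.1 CPM on average, with its highest value in cKO 746 (57.5 CPM) and its lowest in control 775 (9.22 CPM).

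**Figure D2:**
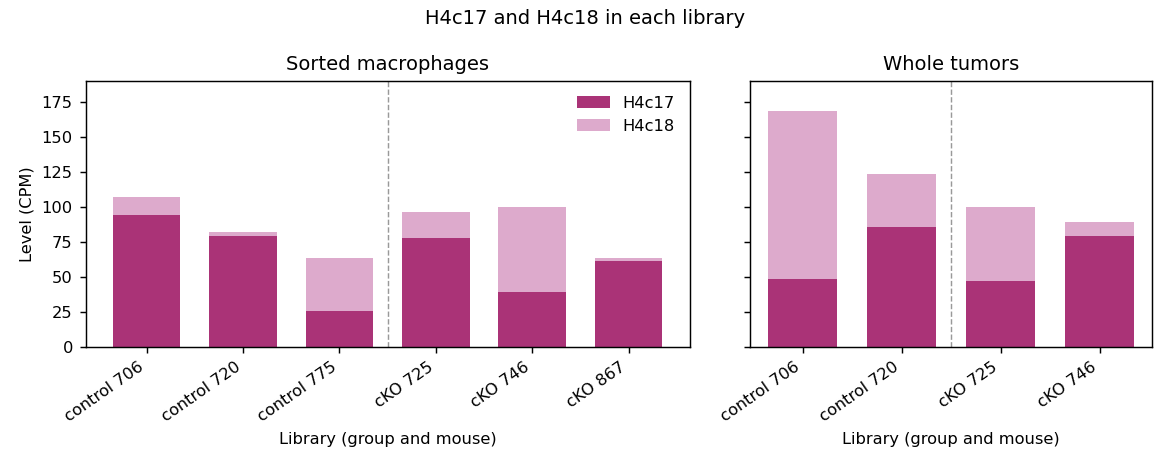
Levels of H4c17 (dark) and H4c18 (light) in each library, in CPM and stacked. The height of the stack runs from 63.2 to 107 CPM over the macrophage libraries while the split between the copies moves from library to library.

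Among the other families the most abundant genes per kilobase of the macrophage table were H2bc4 at 28.1 ± 7.49, H2ac18 at 14.3 ± 19.1 and H3c11 at 13.1 ± 8.92 CPM per kb (SD, n = 6). H2bc4 was at 33.1, 40.4 and 26.6 CPM in controls 706, 720 and 775 and at 41.7, 34.3 and 18.7 CPM in cKO 725, 746 and 867. Its groups overlapped, and its lowest value was again in 867. H2ac18, whose stretches are all shared and which overlaps Gm20633 and Gm20634 in position, was at 15.8, 6.95 and 0.00133 CPM in the controls and at 0.0164, 27.3 and 0.00616 CPM in the cKO libraries. Its 3 lowest values are under 1 read. Its copy H2ac19 was at 0, 0 and 0.219 CPM and at 2.71, 0 and 1.02 CPM, so the values of the pair still ranged from 0.220 to 27.3 CPM when summed. H3c11 was at 10.1, 7.89 and 2.89 CPM in the controls and at 4.37, 7.05 and 0 CPM in the cKO libraries. The 7 members read in the macrophage table alone were all weak, the strongest being H3c13 with a mean of 0.84 CPM.

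Divergent H2A and H2B partners, which share the stretch between their starts, did not stand at equal levels. Per kilobase, the H2B partner had the higher mean in 7 of the 9 pairs read in macrophages and in 4 of the 6 read in tumors. H2bc4 stood at 28.1 CPM per kb beside 2.74 for H2ac6 in macrophages, and at 22.5 beside 0.88 in tumors, higher in every library. In CPM their macrophage means were 32.5 and 6.80. The models hold 1156 exonic bases for H2bc4 and 2482 for H2ac6, so the size of a per-kilobase gap depends on model length. Conversely, H2ac24 stood above its partner per kilobase in every library. It was at 12.1 CPM per kb beside 0.48 for H2bc24 in macrophages and 6.95 beside 0.18 in tumors. In CPM the macrophage means were 5.85 for H2ac24 and 1.06 for H2bc24, with models of 482 and 2212 exonic bases. H2ac24 shares 92.6% of its stretches with other genes, so that level is uncertain.

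The histone genes tended to be high or low together in a macrophage library. Of 44 members with a mean of at least 1 CPM, 19 had their highest value in cKO 746 and 13 in control 706, while cKO 867 held the lowest value of 14, control 775 and cKO 725 of 9 each and cKO 746 of none. A further 7 members had a tied lowest value. Among all genes tested, 24% were highest in 746 and 19.9% in 706, against 43.2% and 29.5% of members. The lowest value fell in 867, 775, 725 and 746 for 12.4%, 18.7%, 14.7% and 12.2% of all genes. For members these shares were 31.8%, 20.5%, 20.5% and 0%, so that of 775 was close to its share over all genes. As the median deviation of these members from their own median, 746 stood at 0.60 and 706 at 0.40 log2 units, and 775 and 867 at -0.33 and -0.48. Over all 16304 genes the same measure lay between -0.089 and 0.086 in the 6 libraries. The high and the low libraries each held 1 control and 1 cKO mouse. With the sum scaled to the other protein-coding genes, 706 and 746 remained the highest at 1003 and 947 per 1000000, with the other 4 at 454 to 648.

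**Figure D3:**
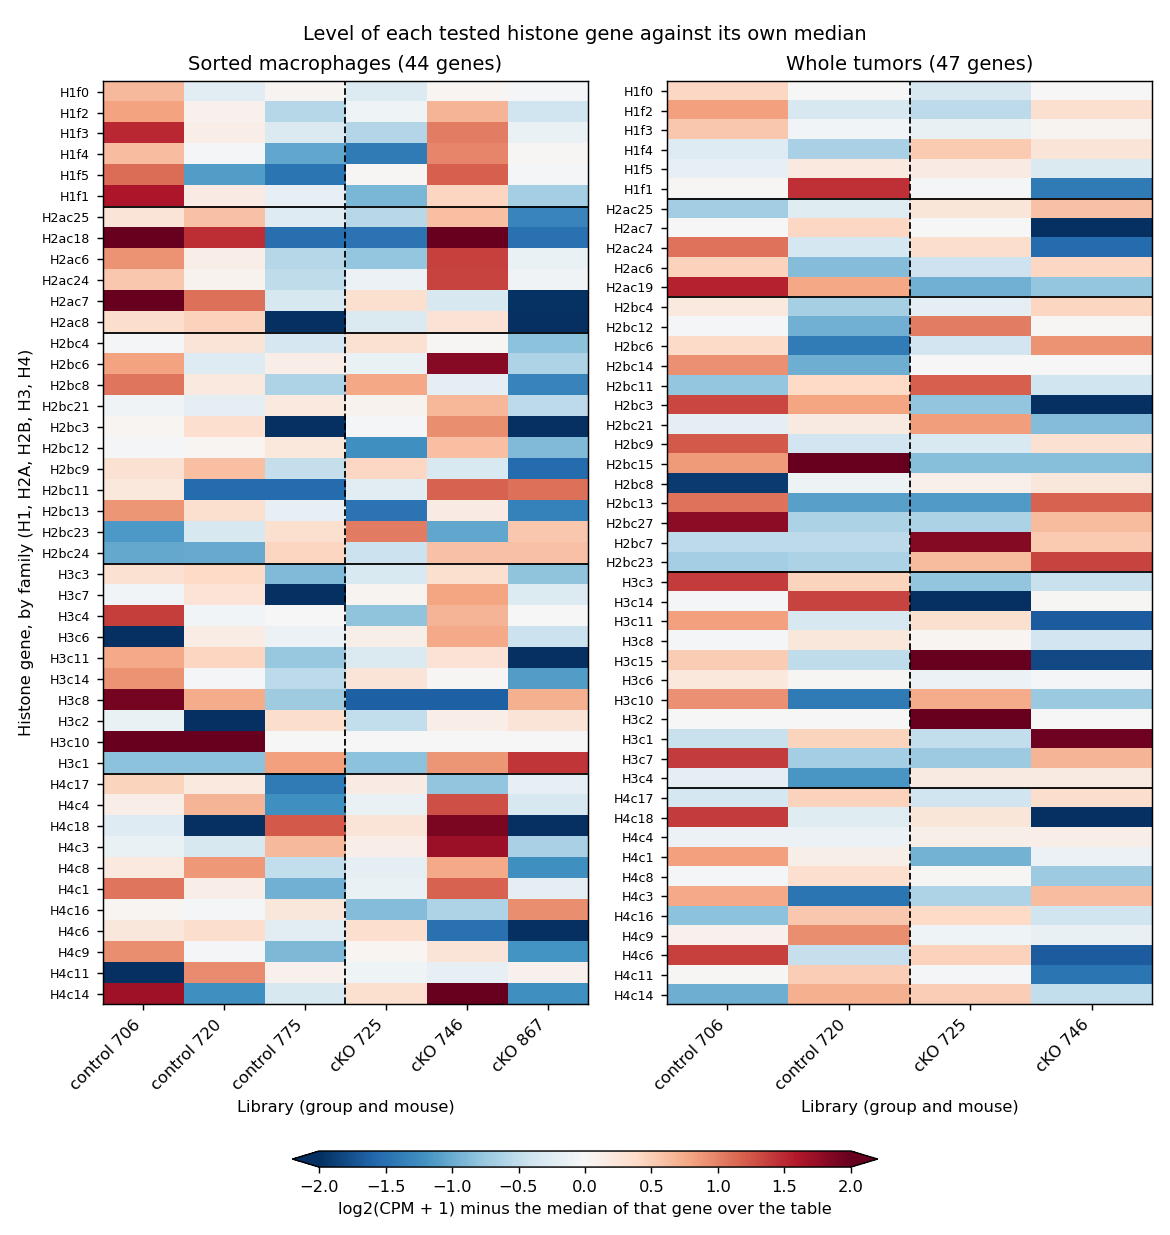
Each tested histone gene (rows, by family) in each library (columns, controls left of the dashed line), as log2(CPM + 1) minus that gene's median over the table. In macrophages the columns of 706 and 746 are mostly red and those of 775 and 867 mostly blue, with median deviations of 0.40, 0.60, -0.33 and -0.48, and among the tumors 706 stands at 0.20 and the other 3 between -0.094 and -0.0046.

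Genes of DNA replication, the process with which these histones are made, stood in a similar order in CPM. Without H1f0 and H1f10, histone genes summed to 636, 465 and 283 CPM in controls 706, 720 and 775 and 374, 682 and 292 CPM in cKO 725, 746 and 867. The 34 S phase and replication genes summed to 666, 599.6 and 511 CPM and to 604, 739 and 499 CPM in the same order. In CPM both sums were highest in 746, then 706, and lowest in 775 and 867. The S phase sum was not scaled to the other protein-coding genes. Protein-coding genes took 67.65% of listed reads in 775, against 73.44% to 80.06% in the other macrophage libraries, so the place of 775 may differ on that scale. The 23 genes of G2 and M phase summed to 534, 472 and 298 CPM in the controls and to 362, 433 and 306 CPM in the cKO libraries, with 706 first and again 775 and 867 last. The 2 libraries with the least histone RNA also held the most fibroblast and endothelial RNA. Fibroblast markers (all 4 read) summed to 375 CPM in 775 and 1003 CPM in 867 against 49.3 to 135 CPM in the other 4, and endothelial markers (all 3 read) to 78.1 and 217 CPM against 14.2 to 20.3 CPM. Control 775 also had the highest share of small nuclear RNA, 6.76% of listed reads against 2.05% to 3.99% in the other macrophage libraries. The part of these differences in the histone values was not tested.

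**Figure D4:**
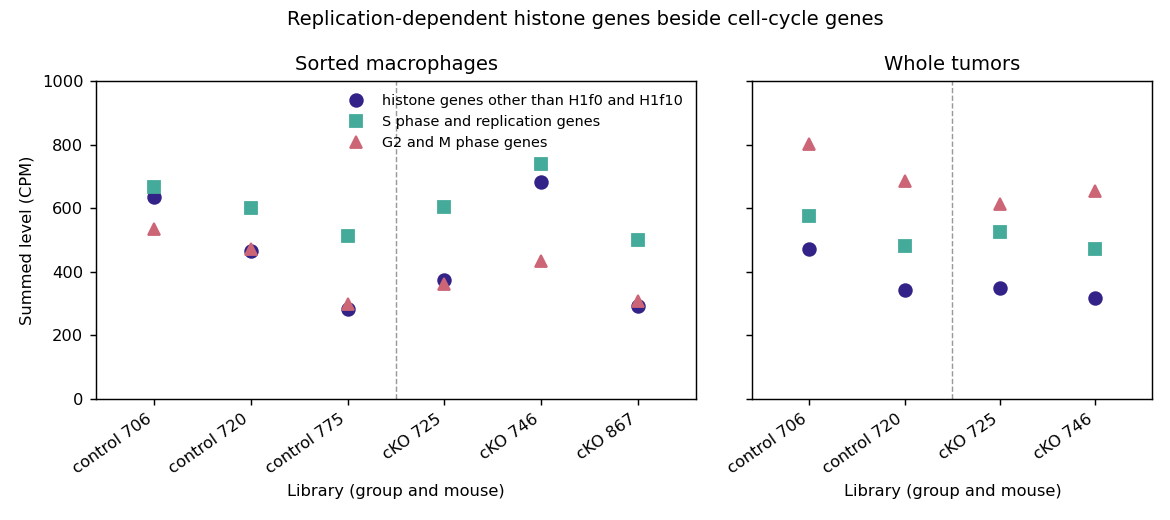
Summed CPM of the histone genes other than H1f0 and H1f10 (circles), of 34 S phase and replication genes (squares) and of 23 G2 and M phase genes (triangles) in each library. In macrophages all 3 sums are lowest in control 775 and cKO 867, and the first 2 are highest in cKO 746 at 682 and 739 CPM.

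Between cKO and control macrophages no histone gene passed the test, which was fitted on log2(CPM + 1) over every gene averaging 1 CPM or more (limma, Benjamini-Hochberg threshold of 0.05). None of 44 members was called, beside 0% of 16304 genes, and 1 member and 428 genes had an unadjusted p under 0.05. The lowest adjusted p was 0.9998. The other 18 of 62 members were under the filter. Differences were positive for 20 members and negative for 24, with a median of -0.087 log2 units, beside 0.045 over all genes. Leaving out libraries moved the median, which was 0.14 without control 706, 0.080 without cKO 867, -0.50 without cKO 746 and -0.41 without control 775, so its sign and size rested on single libraries. By family the medians were -0.15 for H1 (2 of 6 positive), -0.44 for H2A (2 of 6), 0.093 for H2B (6 of 11), -0.30 for H3 (4 of 10) and 0.20 for H4 (6 of 11). The median over all members was -0.0062 without cKO 725 and -0.29 among the 4 mice other than 775 and 867. The summed histone CPM in cKO was 0.952 of that in controls, with 1.17, 1.1 and 1.03 of it without control 706, cKO 867 or cKO 725, and 0.73 without cKO 746. Standard errors were wide, with a median of 0.727 log2 units for the histone genes and 0.537 for all genes. The histone genes tested had a median level of 5.89 CPM.

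Single members illustrate this. H1f2 averaged 61.1 ± 29.3 CPM over the controls and 57.8 ± 23.6 CPM over the cKO macrophages (SD, n = 3 each), a log2 difference of -0.042 with a 95% interval from -0.78 to 0.69 (limma adjusted p = 0.9998), and positive without control 706, cKO 725 or cKO 867 (0.31, 0.030 and 0.19). H1f0 was at 72.0 ± 23.4 and 58.3 ± 6.53 CPM, with a difference of -0.26 and an interval from -0.87 to 0.35. Without control 706 it was -0.014. For H4c17 the difference was -0.0083, from -0.82 to 0.80, and the sum of H4c17 and H4c18 was 84.2 ± 22.1 and 86.5 ± 19.8 CPM. These intervals allow differences of either sign for all 3 genes. No member was higher in every cKO library than in every control, against 3.77% of all genes, and 1 was lower in every one, against 3.45%. That member, H3c10, is named here after its values were seen. It was at 4.57, 8.46 and 0.00925 CPM in controls 706, 720 and 775 and at 0 in all 3 cKO libraries, so it passed the filter through the controls alone. It shares 93.5% of its stretches, and the sum of H3c10 and its neighbor H3c11 overlapped, at 2.90 to 16.4 CPM in controls and 0 to 7.05 CPM in cKO.

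**Figure D5:**
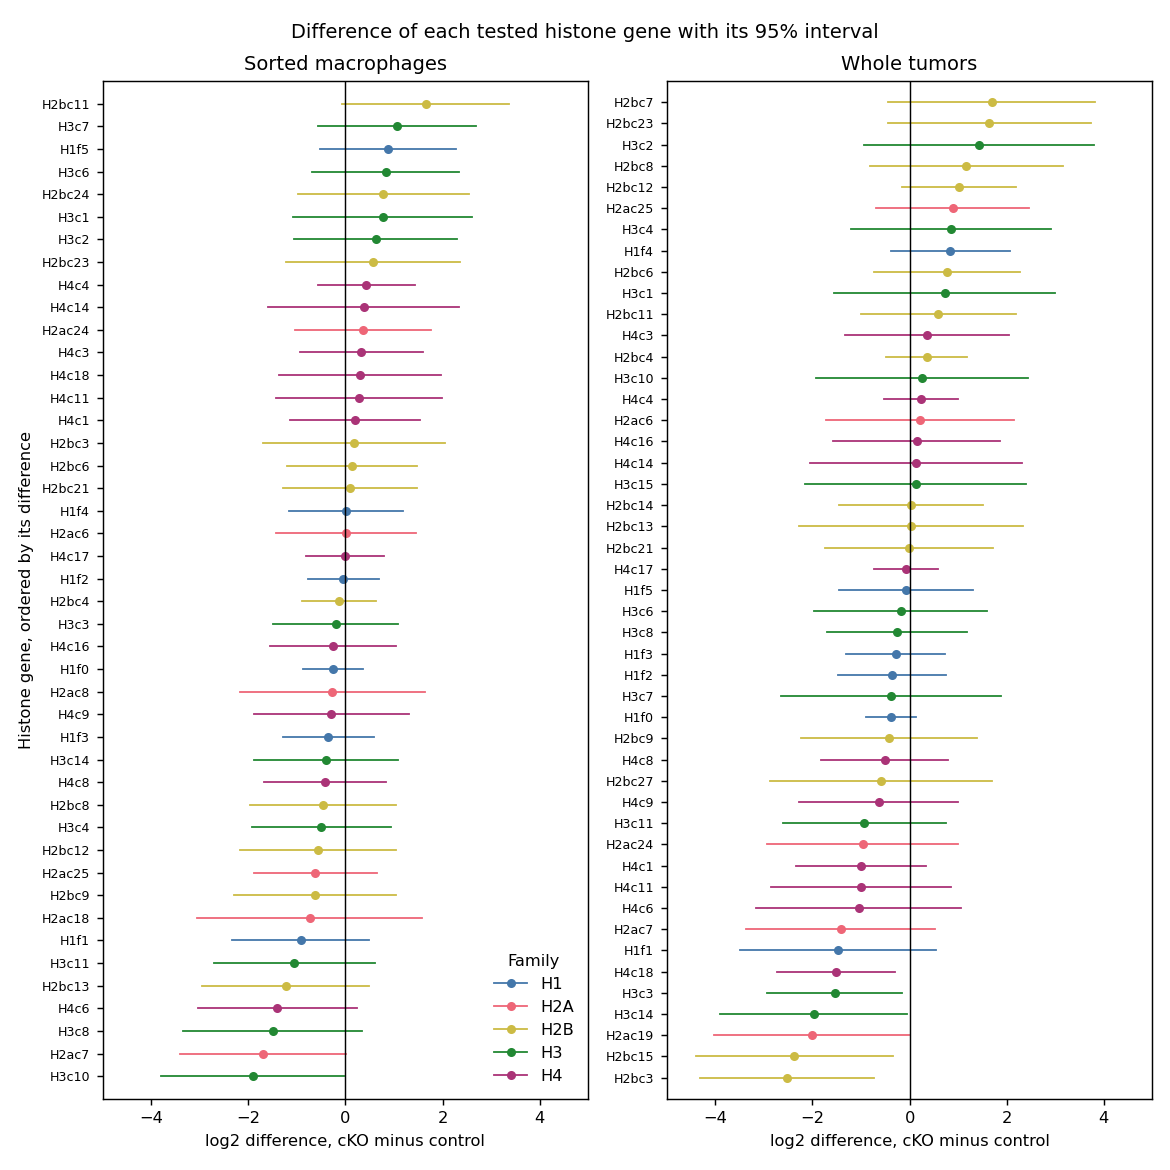
Log2 difference, cKO minus control, of each tested histone gene with its 95% interval from limma, colored by family and ordered by size. In macrophages the differences run from -1.91 to 1.65 and in tumors from -2.52 to 1.69, and none passed the test after adjustment.

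In whole tumors the histone genes took 580.1 and 427 CPM in controls 706 and 720 and 413 and 397 CPM in cKO 725 and 746. The means were 504 ± 108 and 405 ± 11.3 CPM (SD, n = 2 each), and cKO stood at 0.803 of the controls. Control 720 stood close to cKO 725, and the ratio was 0.947 without control 706. Both cKO tumors were also lower for H4 genes, at 156 and 142 CPM against 238 and 189 CPM, and for H2A genes, at 16.7 and 11.9 CPM against 23.97 and 19.3 CPM. The other families overlapped in CPM. H1 genes were at 104.5 and 124 CPM in cKO and 163.6 and 123.6 CPM in controls, H2B genes at 92.1 and 93.7 CPM and 100.4 and 56.5 CPM, and H3 genes at 43.3 and 25.3 CPM and 54.1 and 39.3 CPM. Fibroblast markers (all 4 read) summed to less in the same cKO tumors, at 253 and 337 CPM against 455 and 515 CPM. Col3a1 differed most, at 152.9 and 182.5 CPM in cKO against 316.1 and 343.5 CPM in controls. Dcn was slightly lower, at 30.5 and 30.9 CPM against 34.4 and 32.9 CPM, and Col1a1 and Pdgfra overlapped. The 23 genes of G2 and M phase also summed to less in cKO, at 612 and 654 CPM against 801 and 684 CPM. The S phase sums overlapped, at 526 and 470.4 CPM against 574 and 481 CPM. The part of either in the histone values was not tested. Small nuclear RNA took 15.6% to 24% of listed reads in tumors. When the sums were scaled to the other protein-coding genes the ratio was 0.743.

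H1f0 and the H4c17 and H4c18 pair carried the largest tumor values. H1f0 was at 108.9 and 82.0 CPM in controls 706 and 720 and at 64.6 and 80.4 CPM in cKO 725 and 746, or -0.39 on the log2 scale (SE 0.24, limma adjusted p = 0.838). Its groups did not overlap, though control 720 and cKO 746 lay close, and the difference was -0.18 without control 706, -0.23 without cKO 725 and -0.59 without control 720. H4c17 was at 48.3 and 85.5 CPM in the controls and at 46.7 and 79.4 CPM in cKO, and H4c18 at 120 and 38.0 CPM and at 53.1 and 9.70 CPM. The pair summed to 169 and 124 CPM in controls and to 99.85 and 89.1 CPM in cKO, so here the sum did not overlap between groups. The sum ranged 1.89-fold over the 4 tumors, against 1.83-fold for H4c17 and 12.4-fold for H4c18. The core histones without this pair summed to 248 and 180.1 CPM in controls and to 208 and 184 CPM in cKO, which overlapped.

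No histone gene passed the test in tumors (limma, lowest adjusted p of a member 0.819). None of 47 members was called, beside 0% of 14630 genes, and 6 members and 856 genes had an unadjusted p under 0.05. The other 11 of 58 members were under the filter. Differences were positive for 21 members and negative for 26, with a median of -0.078 log2 units beside 0.089 over all genes. By family the medians were -0.33 for H1 (1 of 6 positive), -0.96 for H2A (2 of 5), 0.19 for H2B (9 of 14), -0.18 for H3 (5 of 11) and -0.52 for H4 (4 of 11). With 2 libraries a group, groups often separate: 8 members were higher in both cKO tumors than in both controls, against 21.2% of all genes, and 11 were lower, against 14.3%. Scaling to the other protein-coding genes shifted the median of all genes by -0.12 log2 units and gave 7 and 13 members. Shares over all genes were not computed under that scaling, so the 7 and 13 have no background beside them. Relative to the medians of all genes, -0.026 under that scaling and 0.089 before it, the members' median was lower on both scales, at -0.35 and -0.078. The rescaled fit also raised every value before the filter and before 1 was added, so these medians differ by more than scaling between libraries.

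The members at 5 CPM or more that separated in tumors came from several families. H2bc12 was at 10.6 and 5.10 CPM in controls 706 and 720 and at 23.02 and 11.1 CPM in cKO 725 and 746, or 1.02 on the log2 scale (SE 0.56, limma adjusted p = 0.833). Its groups overlapped under each of the 3 rescalings run, and its difference was 0.52 without cKO 725 and 0.56 without control 720. H1f4 stood at 6.73 and 4.90 CPM in the control tumors and 12.3 and 10 CPM in the cKO tumors, with a difference of 0.84 (SE 0.58). H2bc6, which overlaps it, was at 10.7 and 2.41 CPM and at 5.90 and 15.8 CPM. H4c4 stood at 20.7 and 20.6 CPM in the control tumors and 24.5 and 24.8 CPM in the cKO tumors, with a difference of 0.24 (SE 0.36). Lower in both cKO tumors were H3c3, at 16.8 and 8.16 CPM against 2.88 and 3.95 CPM, and H4c1, at 13.8 and 8.10 CPM against 3.35 and 6.79 CPM. Their differences were -1.54 (SE 0.65, limma adjusted p = 0.833) and -0.996 (SE 0.63, limma adjusted p = 0.838). Without control 706 that of H3c3 was -1.06. H3c3 is an H3 gene with 36.2% of its stretches shared, and in macrophages its groups overlapped, at 3.82 to 10.7 CPM in controls and 4.07 to 10.1 CPM in cKO. H2ac24 and H3c11, the most abundant H2A and H3 genes of the tumor table per kilobase, overlapped between groups. H2ac24 stood at 7.17 and 2.01 CPM in the control tumors and 3.90 and 0.32 CPM in the cKO tumors, and H3c11 at 11.5 and 4.69 CPM and at 7.78 and 1.23 CPM. For H1f10 the values were 0.62 and 1.86 CPM in controls and 0 and 0.85 CPM in cKO. Of the 3 genes read in tumors alone, H2ac21 was the strongest, at 2.06 CPM in control 720, 0 in control 706 and cKO 725 and 746.

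The 4 mice with both libraries allowed the same gene to be read in macrophages and in the tumor of 1 mouse. The tables were normalized separately and no test was run across them. The H1 genes other than H1f0 and H1f10 summed to 227, 108, 81.5 and 195 CPM in the macrophages of 706, 720, 725 and 746, and to 54.1, 39.7, 39.9 and 42.7 CPM in their tumors. Macrophages were thus 4.19, 2.71, 2.04 and 4.57 times as high, and 1.47 to 3.28 times as high when both tables were scaled to the other protein-coding genes. H1f2 alone was 4.16 to 6.12 times as high in macrophages (2.9 to 4.39 on the protein-coding scale), and H1f3 1.49 to 4.07 times (1.07 to 2.92). In CPM the epithelial markers of the sorted libraries, given above, overlapped those of tumors as a sum. Krt8, Krt18 and Cdh1 were higher in CPM in every sorted library. The markers were not put on the protein-coding scale. The part of epithelial RNA in these ratios was not tested. H1f0 went the other way in all 4 mice, with macrophages at 0.65 to 0.901 of the tumor, or 0.403 to 0.629 on the protein-coding scale. The core histones did not part in this way: their sums in macrophages were 0.982, 1.18, 0.948 and 1.78 of those in the tumors of 706, 720, 725 and 746, and 0.68 to 1.28 on the protein-coding scale. Of the core families, H2A was higher in macrophages in all 4 mice, by 1.43-fold to 7.03-fold, or 1.02-fold to 5.04-fold on that scale. H2B was at 0.771 to 1.39 of the tumor in CPM and lower in macrophages in all 4 mice on the protein-coding scale, at 0.538 to 0.864. The H4c17 and H4c18 sum was at 0.636 to 1.12 in CPM and likewise lower in all 4 on that scale, at 0.412 to 0.802. H3 and H4 as families went both ways on both scales. H2bc12 was lower in macrophages in all 4 mice, at 2.80, 2.99, 0.67 and 4.89 CPM against 10.6, 5.10, 23.02 and 11.1 CPM. Gene by gene, 9 of 55 members were higher in macrophages in all 4 mice and 3 were lower, or 6 and 4 on the protein-coding scale. Of the 41 members tested in each table, 7 were higher and 3 lower in all 4 mice, or 4 and 3 on that scale. Over the 13783 genes tested in each table, 34.3% were higher and 11.5% lower, or 18.9% and 25.4% on that scale. In CPM, mouse 746 had the most histone RNA of any macrophage library and the least of any tumor library. On the protein-coding scale its macrophage library was second to that of 706.

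No gene that acts on histone mRNA was called between the groups. Of the 21 genes of histone mRNA maturation, 20 were tested in macrophages and 19 in tumors, and none passed the limma test, with medians of 0.0030 and 0.13 log2 units. Slbp, the stem-loop binding protein, was at 83.2, 65.8 and 75.4 CPM in control macrophages 706, 720 and 775 and at 69.4, 51.4 and 111 CPM in cKO 725, 746 and 867. Slbp was thus lowest in 746 and highest in 867, which were among the 2 libraries with the most and the 2 with the least histone CPM. In tumors it stood at 49.7 and 53.7 CPM in the control tumors and 43.9 and 55.3 CPM in the cKO tumors. Sympk, a scaffold of the cleavage complex, was higher in both cKO tumors, at 40.3 and 47.9 CPM against 33.9 and 20.5 CPM (limma adjusted p = 0.833). Pou2f1, which encodes an octamer-binding factor, was lower in the 3 cKO macrophage libraries, at 67.4, 47.6 and 75.4 CPM against 82.3, 90.2 and 79.5 CPM (adjusted p = 0.9998), and higher in both cKO tumors, at 97.3 and 83.8 CPM against 70.7 and 71.8 CPM (adjusted p = 0.855). The difference of these effects was not tested.

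Replacement histones, many of which are made throughout the cell cycle from genes with introns and poly(A) tails, included the most abundant H3 gene. H3f3b was at 359 ± 42.7 CPM per kb of exon in the 6 macrophage libraries and 112 ± 24.6 CPM per kb in the 4 tumors (SD), against 13.1 and 15.3 CPM per kb for H3c11. H2az1 was at 59.5 ± 7.35 and 56.8 ± 17.5 CPM per kb. In macrophages H2az1 was at 107 to 127 CPM in cKO and 90.7 to 103 CPM in controls, which did not overlap (log2 difference 0.26, SE 0.25, limma adjusted p = 0.9998). In tumors it was at 66.8 and 102 CPM in cKO and 93.1 and 142 CPM in controls. None of the 8 tested replacement genes passed in either table, nor did any of 19 histone chaperones. Nasp, a chaperone of H1 and H3, was at 27.9 ± 5.95 CPM in control and 41.0 ± 11.8 CPM in cKO macrophages (SD, n = 3 each), and at 38.7 ± 3.41 and 23.4 ± 13.1 CPM in control and cKO tumors (SD, n = 2 each).

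None of the S phase or G2 and M phase genes passed the limma test in either table, with 32 and 23 tested in macrophages and 31 and 23 in tumors. The median difference of S phase genes was 0.065 in macrophages and -0.076 in tumors, and that of G2 and M phase genes -0.28 and -0.25 log2 units. Pcna, the replication clamp, was at 132 ± 21.9 and 148 ± 40.0 CPM in control and cKO macrophages and at 57.5 ± 2.52 and 75.4 ± 7.09 CPM in control and cKO tumors. Mki67, the marker of cycling cells, was at 92.7 ± 38.6 and 66.8 ± 4.93 CPM in macrophages and at 86.6 ± 14.3 and 99.4 ± 18.7 CPM in tumors. Of the 31 S phase genes tested in tumors, 5 were higher in both cKO libraries than in both controls, Pcna among them (limma adjusted p = 0.840). Another 9 were lower. Over all genes tested in tumors, 21.2% were higher and 14.3% lower in this way. Cdc6, which loads the replicative helicase, was at 4.86 and 7.39 CPM in controls and at 0 and 1.13 CPM in cKO, or -2.26 on the log2 scale (SE 0.88, limma adjusted p = 0.819). Rfc2, a subunit of the clamp loader, was at 17.1 and 10.8 CPM and at 2.69 and 6.30 CPM, or -1.49 (SE 0.62, limma adjusted p = 0.821). Of the 23 G2 and M phase genes, 8 were lower in both cKO tumors and 0 higher, beside the same shares over all genes.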

How the data were processed

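Total RNA libraries were analysed from sorted tumor macrophages (3 cKO, 3 control) and whole tumors (2 cKO, 2 control). Reads were aligned with STAR 2.7.8a and processed in Partek on GRCm38 (mm10), per the submitters' processing notes. How reads that match several genes were counted, and whether strand was used, is not given in the sources used here. The deposited values are log2(CPM + 1): 2 to the deposited value, minus 1, sums to 1000000 per library in each table. The tables were normalized separately, so tests stayed within a table. CPM values under 0.001 were written as 0. Depth was read from the steps between low values. Since fewer than 95% of low values were whole reads, no count test was run.

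Differences (cKO minus control) were fitted with limma 3.58.1 in R 4.3.3 (lmFit, eBayes with trend) on genes averaging 1 CPM or more, two-sided, with Benjamini-Hochberg adjustment over all genes of the table and a threshold of 0.05. The fit was tested on simulated data. Log2 differences are on the log2(CPM + 1) scale and understate changes of low genes. Levels between genes were compared per kilobase of annotated exon, so they depend on the length of each model. The start positions in the tables matched GENCODE vM21 for 0 of 65 members and the span lengths for 65, so positions came from GENCODE by gene ID.

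Named in each table were the most abundant member of each family per kilobase, up to 5 members per direction that averaged 5 CPM or more with no overlap between groups, H1f0, H1f10, the most abundant member read in 1 table only, and, of other lists, the 2 genes with the lowest p plus Slbp, Mki67 and Pcna. Members and lists were chosen with earlier results of these data known. Alternatives changed the pseudocount, filter, scaling, variance model and library weights, or left out libraries. Overlap counts under other scalings were chosen after seeing the data. No genome sequence was used.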

Additional observations from a re-analysis of the deposited data

How the results depend on the processing

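In both tables no histone gene passed the threshold under any alternative, with a lowest adjusted p (limma) of 0.962 over 16 alternatives in macrophages and 0.518 over 12 in tumors. No paired analysis was possible because cKO and control mice share no number, and the numbers shared by macrophage and tumor libraries link separately normalized tables within a genotype. The tumor median difference of the histone genes (-0.078) was -0.35 with protein-coding scaling and -0.25 with a pseudocount of 0.1. It ran from -0.42 to -0.087 with single libraries left out. Protein-coding scaling divided tumor values by 0.497 to 0.565, which raised them before the filter and before 1 was added. Its shift is thus not that of scaling between libraries alone. In macrophages that median ran from -0.50 to 0.14 with single libraries left out. Signs of some named genes turned with single libraries left out, also where the difference was larger, as for H2ac18 (-0.74) in macrophages and H3c11 (-0.93) in tumors. In macrophages these ran from -0.38 to 0.31 for H1f2, from -2.34 to 0.12 for H2ac18, from -0.36 to 0.19 for H2bc4, from -0.59 to 0.34 for H4c17, from -0.56 to 0.074 for H2az2, from -0.013 to 0.38 for Pcna and from -0.31 to 0.23 for Slbp. In tumors they ran from -1.92 to 0.059 for H3c11, from -0.48 to 0.33 for H4c17 and from -0.23 to 0.098 for Slbp. H2bc4 stood at 0.045 among the 4 mice with both libraries, and H4c17 at 0.17 with library weights. The cause was not tested. Depth limits genes at a few reads, and sequence shared between copies limits single core histone genes at any depth.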
